A study of Mus musculus with 61 samples.

Results

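The mRNA levels of 8 genes that write, copy and remove DNA methylation were followed in mouse stembryos: Dnmt1, Uhrf1, Dnmt3a, Dnmt3b, Dnmt3l, Tet1, Tet2 and Tet3. They were taken by gene symbol from a table of 55052 genes, and all 8 were among the 17098 genes that passed the filter on low values, a mean of at least 1 FPKM in at least 1 group. Stembryos, also called gastruloids, are aggregates of mouse embryonic stem (mES) cells that elongate into a structure resembling the posterior embryo after a pulse of Wnt agonist. The pulse, of the GSK-3 inhibitor Chiron, ended at 72 h, the first stage sampled here. Before aggregation the mES cells were cultured with LIF and inhibitors of GSK-3 and MEK. The study used stembryos to ask how CTCF-binding sites (CBSs) in and near the HoxD cluster time the activation of Hoxd genes. Levels are in FPKM, fragments scaled by transcript length and library depth, so that genes can be compared per length, and each library pooled several stembryos.

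The 61 poly(A) RNA libraries fell into 28 groups. The wild-type timecourse held 2 libraries at each of 72, 84, 96, 108, 120, 132, 144 and 168 h after aggregation. Wild-type controls outside the timecourse were made at 96 h (4 libraries), 120 h (4) and 144 h (2). The mutant stembryos were homozygous and had 2 libraries a stage, except 3 for Del(sub-TAD1) at 96 h. Del(CBS1), Del(CBS2) and Del(CBS4) each lacked 1 CTCF site of the cluster, Del(CBS1-2) lacked 2 (the second removed on top of Del(CBS1)), and Del(CBS1-5) lacked the series of sites from CBS1 to CBS5. Del(d1-d4) lacked the Hoxd1 to Hoxd4 segment, Del(sub-TAD1) lacked a neighbouring regulatory domain, and Ins(2xCBS-d4d8) carried a cassette of 2 added CTCF sites between Hoxd4 and Hoxd8. The Del(sub-TAD1) deletion also removed the gene Mtx2, and its mice were crossed with carriers of a transgene of the Mtx2 region for rescue. All mutants except Del(CBS4) were collected at 96 h and 120 h, Del(CBS1-5) also at 144 h, and Del(CBS4) at 120 h and 144 h. Per the study's methods, most mutants were made by CRISPR editing of a wild-type 129/SVEV mES line, but those of Del(sub-TAD1) and of Del(CBS1-5) came from blastocysts of mutant mice on another background. For these, the deletion and the origin of the line cannot be told apart. The edited lines were grown from clones picked after puromycin selection, so there the mutation and the clone cannot be told apart. No label names the line behind each wild-type library. From 108 h only elongating stembryos were collected. The methods speak of biological replicates and independent samples, but no source used here says whether these were separate clones or cultures, so the p-values measure the spread between these libraries, which may be technical.

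Methyl groups on cytosines of CpG pairs are placed on unmethylated DNA by the de novo methyltransferases DNMT3A and DNMT3B, which DNMT3L, a relative without catalytic activity, stimulates. At replication, UHRF1 recognises half-methylated CpGs and brings DNMT1 to copy the mark onto the new strand. TET1, TET2 and TET3 oxidise methylcytosine, which leads to its loss through replication or repair. In the embryo the genome is weakly methylated in the naive inner cell mass and is methylated again as the epiblast forms, a stage at which Dnmt3b is high.

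Dnmt3b, which had the largest change across stages, and Dnmt3l, which had the largest across mutants, differed in the DNA before their starts. The 250 bases upstream of the first RefSeq start are shown for both (GRCm38.p6, plus strand, Dnmt3b at chr2:153649199-153649448 and Dnmt3l at chr10:78042037-78042286), with each CG pair, the site where these enzymes act, in capitals.
Dnmt3b: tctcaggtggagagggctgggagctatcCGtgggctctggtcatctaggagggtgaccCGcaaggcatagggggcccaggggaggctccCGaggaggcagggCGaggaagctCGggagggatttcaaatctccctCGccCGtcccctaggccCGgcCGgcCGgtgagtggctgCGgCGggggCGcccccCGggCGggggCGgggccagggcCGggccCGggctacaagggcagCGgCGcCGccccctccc
Dnmt3l: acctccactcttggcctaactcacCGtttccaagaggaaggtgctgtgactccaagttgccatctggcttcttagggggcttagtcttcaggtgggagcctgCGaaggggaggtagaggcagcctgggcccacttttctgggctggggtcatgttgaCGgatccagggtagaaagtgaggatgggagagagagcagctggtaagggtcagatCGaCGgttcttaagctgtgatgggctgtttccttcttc
The Dnmt3b window held 21 CG pairs at a GC content of 75.2%, and 16.4% of 32841 RefSeq starts had at least as many. The Dnmt3l window held 5 at a GC content of 55.6%, and 55.6% of starts had at least as many, while 2 further starts of Dnmt3l had 4 and 3. A CG pair occurred in 92.1% of the windows of this length, with a median of 6. GGGCGG, the core of the Sp1 motif, was searched on both strands and was found 3 times before Dnmt3b, not before the first Dnmt3l start but 2 times before its second, and in 32.7% of windows, and each match holds a CG pair. ATGCAAAT, the octamer motif, was in no window of the 8 genes and in 1.60% of windows. Before their first RefSeq starts the other genes held 2 CG pairs (Dnmt1, with 7 and 26 at its later starts), 10 (Uhrf1, with 30), 38 (Dnmt3a, with 40 and 15), 15 (Tet1), 51 (Tet2) and 17 (Tet3). For Dnmt3a, Tet1, Tet2 and Tet3 these windows lie inside the gene span given below, and the annotated gene ends were not examined.

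The libraries were not alike in depth or content. Fragments per library ranged from 14.0 M to 36.4 M (median 22.5 M), inferred from the confidence bounds listed with low FPKM values. The libraries formed 2 sets by the mitochondrial mRNA mt-Co3, a split that no label names. It was at 995 to 1718 FPKM in 28 libraries (high set) and at 0.338 to 2.76 FPKM in 33 (low set). Of the low values read for depth, 37.5% to 43.6% gave near whole fragment numbers in libraries of the high set. In the low set 64.6% to 70.8% did. The timecourse, the 144 h controls and the fourth 96 h and 120 h controls were in the low set, together with Del(CBS4), Ins(2xCBS-d4d8), Del(sub-TAD1) at 96 h and Del(CBS1-5) at 144 h. Mutant values against wild-type libraries of the same set and stage, timecourse included, are therefore given where they change a call or move a called value by more than 1 on the log2 scale. Also apart from the rest at both stages was the third wild-type control, whose cell line no label gives and whose values are given with Dnmt3l. Hoxd1, Hoxd3 and Hoxd4 were listed at 0 in all 4 Del(d1-d4) libraries, against 4.59 to 35.4 FPKM in the controls. In the timecourse the summed level of 6 streak and neuromesodermal markers was highest at 72 h (1367 to 1584 FPKM), that of 4 somite markers at 108 h (421 to 461) and that of 5 spinal cord markers at 168 h (186 to 191).

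Across the wild-type timecourse the enzymes that copy methylation stayed at a high level, Dnmt3b fell at nearly every step, Tet1 fell, and Tet2 and Tet3 rose. By the F test over the 8 stages (limma, Benjamini-Hochberg over all genes tested), 7 of the 8 genes changed and Dnmt3l did not pass (adjusted p = 0.440), where 61.8% of all genes passed. Between the first and last stage 4 of the 8 changed (limma), Dnmt3b and Tet1 down and Tet2 and Tet3 up, against 48.2% of all genes.

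The maintenance genes varied least. Dnmt1, the maintenance methyltransferase, measured 85.4 and 89.6 FPKM at 72 h, 107 and 103 FPKM at 96 h, and 84.4 and 77.2 FPKM at 168 h. Uhrf1, which guides it to replicated DNA, measured 127 and 115 FPKM at 72 h, 154 and 139 FPKM at 96 h, and 118 and 118 FPKM at 168 h. Both were highest in the middle stages, with Dnmt1 at 105 FPKM at 96 h and Uhrf1 at 147 FPKM at 108 h on average, and neighbouring stages mostly overlapped in that order. The F test passed for both (limma, adjusted p = 0.00363 for Dnmt1 and 1.88e-05 for Uhrf1), but the log2 difference between 168 h and 72 h did not (-0.12 with adjusted p = 0.334 and -0.03 with adjusted p = 0.814, limma). No single step passed for either gene.

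Dnmt3b, the methyltransferase of the early epiblast, fell throughout. Its levels were 231 and 192 FPKM at 72 h, 91.5 and 94.9 at 84 h, 55.0 and 63.7 at 96 h, 40.8 and 39.3 at 108 h, 32.3 and 29.9 at 120 h, 24.8 and 26.0 at 132 h, 23.4 and 23.1 at 144 h, and 14.7 and 14.5 at 168 h. No 2 stages overlapped, and the mean at 72 h was 14.4-fold that at 168 h. On the log2 scale the difference between 168 h and 72 h was -3.84 ± 0.08 (SE, n = 2 and 2, limma adjusted p = 3.24e-30), and it passed without any 1 library. The first step was the steepest, with a log2 difference of -1.17 from 72 h to 84 h (limma, adjusted p = 3.13e-14), and the step from 132 h to 144 h was the only 1 of 7 that did not pass (-0.13, adjusted p = 0.426). The step from 120 h to 132 h (-0.29, limma adjusted p = 0.0330) was lost without the first 120 h library (-0.24) and without the first (-0.26) or the second (-0.32) 132 h library.

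Dnmt3a, the other de novo methyltransferase, went up and then down. It measured 42.6 and 44.1 FPKM at 72 h, 56.1 and 54.0 at 84 h, 60.6 and 67.2 at 132 h, 51.0 and 46.3 at 144 h, and 40.6 and 40.2 at 168 h. The 72 h and 168 h libraries were lower than all others, and the log2 difference between these ends was small (-0.10, limma adjusted p = 0.499). The rise from 72 h to 84 h was 0.34 on the log2 scale (limma, adjusted p = 0.0196) and the fall from 132 h to 144 h was -0.39 (adjusted p = 0.0203). The rise was lost without any 1 of its 4 libraries (0.32 to 0.37), and the fall without the second 132 h (-0.32), the first 144 h (-0.46) or the second 144 h library (-0.32). Per length, Dnmt3b made up 82.9% of the summed Dnmt3a and Dnmt3b level at 72 h and 26.6% at 168 h, while the sum itself went from 255 to 55.0 FPKM. Dnmt3l, their cofactor, was low at all stages, from 0.879 and 0.977 FPKM at 72 h to 2.91 and 2.92 FPKM at 132 h and 1.25 and 1.10 FPKM at 168 h. Its F test passed only when the fit held the timecourse alone (limma, adjusted p = 0.00576) or when replicate numbers were a block (adjusted p = 0.00769).

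**Figure D1:**
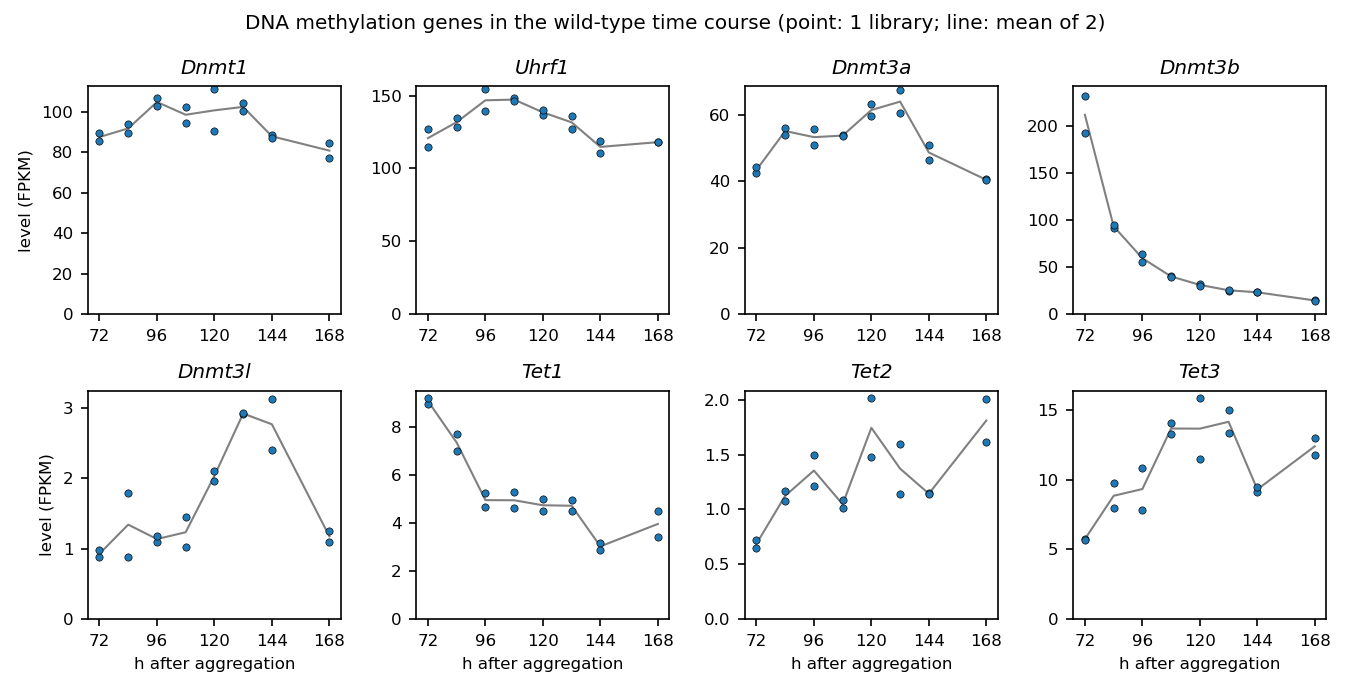
FPKM of the 8 genes (1 panel a gene, each axis starting at 0) against hours after aggregation in the wild-type timecourse, with a point for each of the 2 libraries a stage and a line through the stage means. Dnmt3b falls from a mean of 211 to 14.6 FPKM, whereas Dnmt1 and Uhrf1 stay between 77.2 and 154 FPKM.

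Among the dioxygenases, the main transcript changed from Tet1 to Tet3. Tet1, the TET gene of pluripotent cells, measured 8.95 and 9.17 FPKM at 72 h, 7.70 and 6.97 at 84 h, 5.25 and 4.64 at 96 h, 3.16 and 2.89 at 144 h, and 4.48 and 3.42 at 168 h. The 72 h and 84 h libraries were above all later ones, and the stages from 96 h to 132 h overlapped. The log2 difference between 168 h and 72 h was -1.19 ± 0.16 (SE, limma adjusted p = 6.90e-08).

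Tet3, which is also known from the oocyte and from neural tissue, measured 5.78 and 5.71 FPKM at 72 h, 9.74 and 7.96 at 84 h, 13.3 and 14.0 at 108 h, 13.3 and 15.0 at 132 h, 9.13 and 9.48 at 144 h, and 13.0 and 11.8 at 168 h. It was lowest at 72 h, with no overlap with any later stage, and dipped at 144 h. The wild-type 144 h controls outside the timecourse, also of the low mt-Co3 set, measured 13.7 and 14.7 FPKM and showed no such dip. The log2 difference between the ends was 1.10 ± 0.16 (SE, limma adjusted p = 2.51e-07). Tet2, which lacks the DNA-binding CXXC domain of its relatives, stayed low, at 0.650 and 0.722 FPKM at 72 h and 2.01 and 1.62 FPKM at 168 h (log2 difference 1.28 ± 0.22, SE, limma adjusted p = 8.92e-06). Of the summed TET level, Tet1 took 58.5% at 72 h and 21.7% at 168 h, Tet3 37.1% and 68.4%, and Tet2 4.43% and 9.94%, with a sum of 15.5 and 18.2 FPKM. These end-to-end differences passed without any 1 library.

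**Figure D2:**
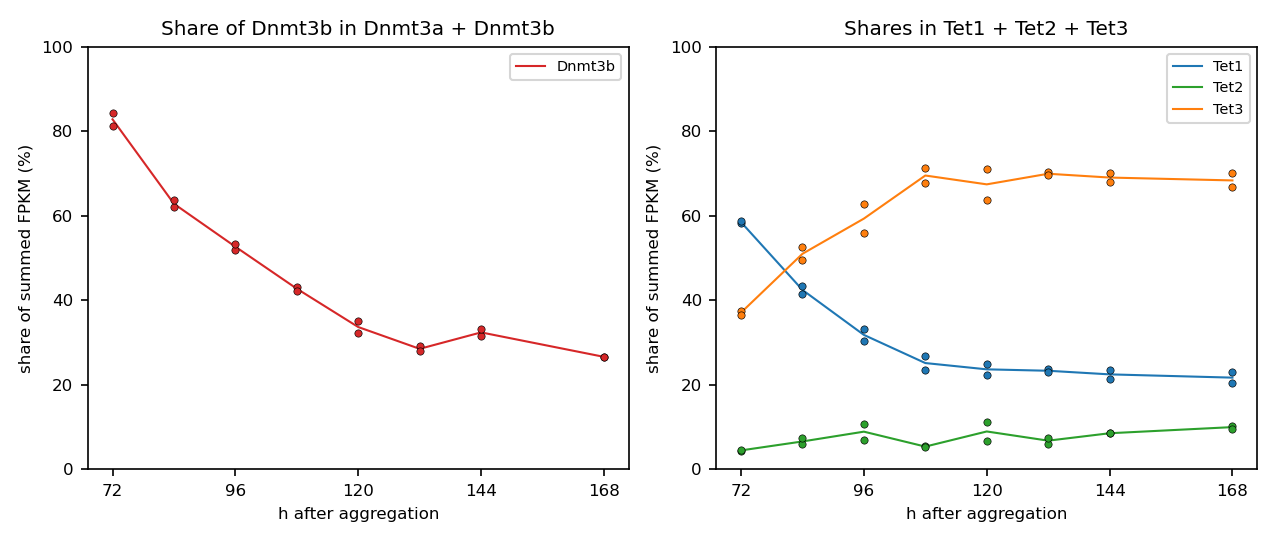
Share (percent) of the summed FPKM taken by Dnmt3b of Dnmt3a and Dnmt3b, and by Tet1, Tet2 and Tet3 of the 3 TET genes, against hours after aggregation in the wild-type timecourse, with points for libraries and lines through means. The Dnmt3b share goes from 82.9% to 26.6% and the Tet1 share from 58.5% to 21.7%.

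By single steps, 14 of the 56 tests passed (limma, Benjamini-Hochberg per step), 4 upward and 10 downward. From 72 h to 84 h, where 16.3% of all genes passed, Dnmt3a, Tet2 (log2 difference 0.64, adjusted p = 0.0443) and Tet3 (0.61, adjusted p = 0.00506) rose and Dnmt3b fell. From 84 h to 96 h (20.7% of all genes), Dnmt3b and Tet1 (-0.56, adjusted p = 0.00871) fell. From 96 h to 108 h (9.45%), Dnmt3b fell and Tet3 rose (0.56, adjusted p = 0.0161), and from 108 h to 120 h (7.06%) and 120 h to 132 h (2.46%) only Dnmt3b fell among the 8. From 132 h to 144 h (5.42%), Dnmt3a, Tet1 (-0.62, adjusted p = 0.0146) and Tet3 (-0.60, adjusted p = 0.0169) fell, and from 144 h to 168 h (9.87%) Dnmt3b fell (-0.66, adjusted p = 8.19e-08). Several of these calls rested on single libraries. Those of Tet2 at the first step (0.57 to 0.71) and of Tet1 (-0.55 to -0.69) and Tet3 (-0.51 to -0.68) at the step to 144 h were lost without any 1 of their 4 libraries. Tet3 at the first step was lost without the first 84 h library (0.46), Tet1 at the second without the first 84 h (-0.49) or the second 96 h library (-0.47), and Tet3 from 96 h to 108 h without the second 96 h (0.33), the first 108 h (0.60) or the second 108 h library (0.53).

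The 96 h and 120 h wild-type controls, made outside the timecourse, gave the same comparison with 4 libraries a stage. Dnmt3b was lower and Dnmt3a and Tet3 were higher at 120 h, and the other genes did not pass. Here 3 of the 8 genes passed, against 27.1% of all genes (limma), and leaving out any 1 library lost none of the 3. Dnmt3b measured 44.6, 45.5, 50.6 and 48.3 FPKM at 96 h (47.2 ± 2.75, SD, n = 4) and 25.2, 23.9, 28.9 and 25.1 FPKM at 120 h (25.8 ± 2.14, SD, n = 4). The groups did not overlap, and the log2 difference was -0.87 ± 0.05 (SE, limma adjusted p = 3.59e-15).

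Dnmt3a measured 35.03, 34.4, 39.1 and 50.4 FPKM at 96 h (39.7 ± 7.43, SD, n = 4) and 52.2, 53.0, 55.1 and 60.1 FPKM at 120 h (55.1 ± 3.57, SD, n = 4). The fourth control, of the low mt-Co3 set, was the highest at each stage, and the stages did not overlap (log2 difference 0.49 ± 0.07, SE, limma adjusted p = 2.75e-06). Tet3 measured 6.51, 7.10, 5.94 and 9.50 FPKM at 96 h and 10.9, 10.8, 9.95 and 13.7 FPKM at 120 h, again apart (0.65 ± 0.11, SE, limma adjusted p = 1.63e-05). Dnmt3l was the 1 gene whose call depended on the pairing of the control numbers, which went together across the stages. Its log2 difference was 0.98 ± 0.54 (SE, limma adjusted p = 0.200), with adjusted p = 0.00539 when the replicate number was a block, and 1.12 (adjusted p = 0.0120) without the third control. In all 4 controls the Dnmt3b to Dnmt3a ratio at 120 h was below all 96 h values, with a log2 difference of -1.36 (exact permutation test, two-sided, p = 0.0286, the smallest that 4 against 4 allows, adjusted p = 0.0714 over 5 ratios). The Tet1 to Tet3 ratio was likewise lower in 4 of 4, by -0.53 on the log2 scale (exact permutation test, two-sided, p = 0.0286, adjusted p = 0.0714). None of the 5 ratios passed after adjustment (exact permutation tests, 2 at an unadjusted p under 0.05).

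Across the 17 mutant groups the maintenance genes moved little, whereas Dnmt3l was far above the controls in Del(CBS1-5) and at 120 h below them in 5 other mutants. In total 29 of 136 tests passed (limma, Benjamini-Hochberg within each mutant and stage), 17 upward and 12 downward. When libraries were rescaled by median ratios the split was 15 upward and 18 downward. The share of all genes that passed ran from 0.193% in Del(CBS2) at 120 h to 40.0% in Del(sub-TAD1) at 96 h. It is given below for each mutant and stage. Dnmt3l accounted for 12 of the 29 (4 up, 8 down), Dnmt3b for 5 (all up), Dnmt3a for 4 (2 up, 2 down), Tet3 for 3, Tet1 and Uhrf1 for 2 each, Tet2 for 1 and Dnmt1 for 0 of 17 (limma, 1 of 17 at an unadjusted p under 0.05). Mutants of 1 stage share their wild-type controls, so their values are given side by side and are not independent.

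**Figure D3:**
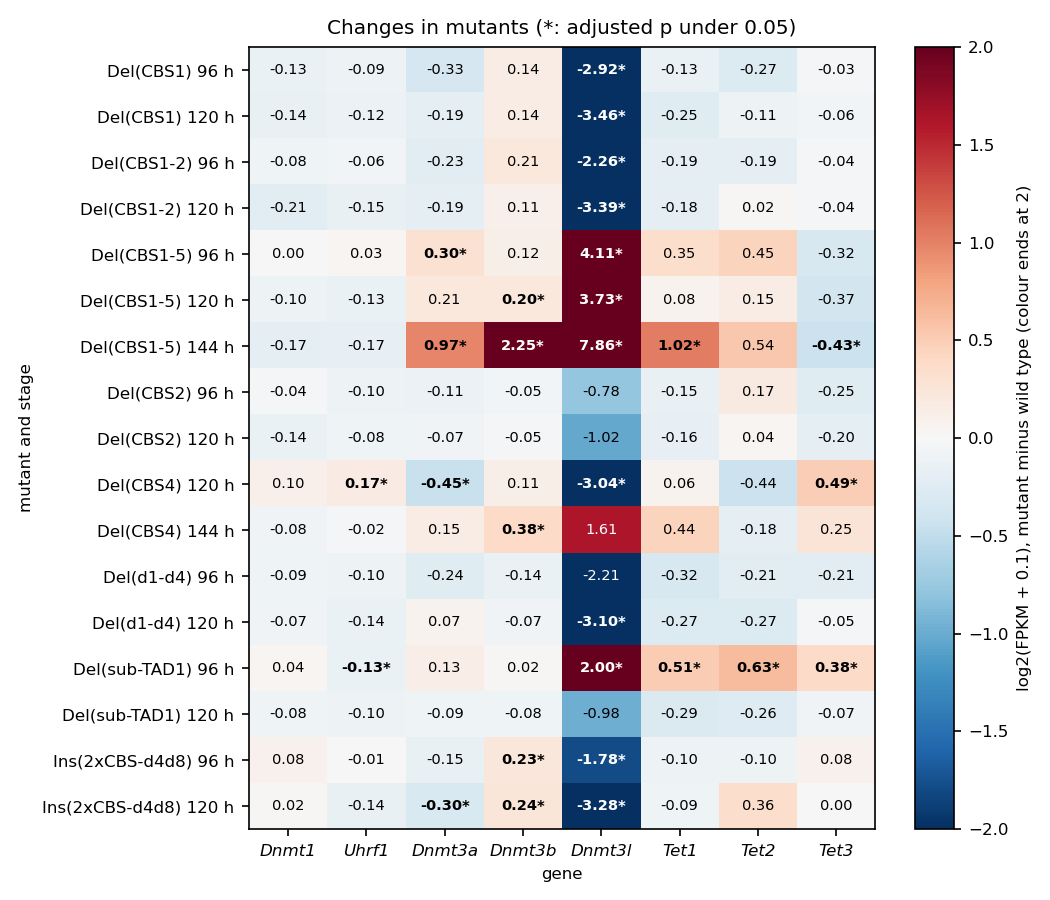
Log2 difference in FPKM between each mutant group (rows, by mutant and stage) and the wild-type controls of its stage for the 8 genes (columns), as colours that end at 2 in either direction, with the value in each cell and an asterisk where the limma adjusted p was under 0.05. The Dnmt3l column holds the extremes, from -3.46 in Del(CBS1) at 120 h to 7.86 in Del(CBS1-5) at 144 h.

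Dnmt1 ranged from 74.2 to 111 FPKM over all 61 libraries and Uhrf1 from 108 to 154 FPKM. Outside the timecourse, Dnmt1 lay at 74.2 to 85.6 FPKM (median 80.4) in the 28 libraries of the high mt-Co3 set and at 82.4 to 106 FPKM (median 92.1) in the 17 of the low set. Against controls of the same set, Dnmt1 was lower in Del(sub-TAD1) at 96 h (log2 difference -0.27, limma adjusted p = 0.00154) and in Ins(2xCBS-d4d8) at 96 h (-0.23, adjusted p = 0.0183), which did not pass against all controls.

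Del(CBS1-5) stembryos had raised de novo methyltransferase and Tet1 mRNA at 144 h. Of the 8 genes, 2 passed at 96 h (14.8% of all genes), 2 at 120 h (13.3%) and 5 at 144 h (23.7%) by limma. Pluripotency RNA was high in the same libraries. At 144 h the summed level of 8 naive pluripotency genes was 77.7 to 83.3 FPKM in Del(CBS1-5), with 7 of the 8 at 1 FPKM or more, against 4.02 to 4.08 FPKM (1 of the 8) in the controls and 15.4 to 16.3 FPKM (5 of the 8) in the timecourse. Pou5f1 (Oct4) was at 199.9 and 207 FPKM in Del(CBS1-5), where the controls had 1.25 and 3.30 FPKM. Their part in the changes of Dnmt3b, Dnmt3a, Dnmt3l and Tet1 was not tested. Dnmt3b measured 74.0 and 76.0 FPKM at 144 h, against 15.3 and 16.02 FPKM in the controls of that stage and 23.4 and 23.1 FPKM in the timecourse. The Del(CBS1-5) libraries were above all wild-type libraries from 96 h onward and below those at 84 h, and the log2 difference from the controls was 2.25 ± 0.08 (SE, n = 2 and 2, limma adjusted p = 1.54e-22). Dnmt3a measured 85.1 and 90.7 FPKM against 45.5 and 44.0 FPKM (0.97 ± 0.11, SE, limma adjusted p = 8.37e-09), the highest values of this gene in any library. Together the 2 genes summed to 163 FPKM, of which Dnmt3b made up 46.1%.

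Tet1 measured 8.31 and 7.82 FPKM in Del(CBS1-5) at 144 h against 3.59 and 4.29 FPKM (1.02 ± 0.16, SE, limma adjusted p = 6.06e-06), with no overlap. Tet3 was lower, at 9.86 and 11.2 FPKM against 13.7 and 14.7 FPKM (-0.43, limma adjusted p = 0.0433), a call that was lost without any 1 of its 4 libraries (-0.33 to -0.52). Against all 4 wild-type 144 h libraries of the same set, timecourse included, the log2 differences were 1.97 for Dnmt3b, 0.91 for Dnmt3a, 1.20 for Tet1, 1.05 for Tet2, which then passed, and -0.12 for Tet3, which did not. The transcriptomes of the 144 h controls were nearest to a timecourse age of 155 h and those of Del(CBS1-5) to 139 h, and with the timecourse level at these ages subtracted the log2 differences were 1.89 for Dnmt3b, 0.69 for Dnmt3a and 0.93 for Tet1, all past the threshold. At the earlier stages the calls beside Dnmt3l were small. Dnmt3a in Del(CBS1-5) at 96 h was 50.4 and 46.4 FPKM (0.30, limma adjusted p = 0.0219) and Dnmt3b at 120 h was 28.7 and 30.5 FPKM (0.20, adjusted p = 0.0371), both overlapping the controls. Against controls of the same set Dnmt3a passed at both stages (0.42 and 0.25), and Dnmt3b at 120 h did not (0.19, limma adjusted p = 0.403). The first was lost without the first (0.25) or the second (0.24) control or without either mutant library (0.24 and 0.36), and the second without any 1 library except the third control (0.16 to 0.25). The change at 144 h exceeded the one at 96 h (10.3% of all genes passed this test) for Dnmt3b by 2.14, for Dnmt3a by 0.67 and for Tet1 by 0.67 on the log2 scale (limma, adjusted p = 1.10e-17, 0.00123 and 0.0359), and the Tet1 difference was lost with 6 of the 10 libraries left out in turn. With the timecourse level at the estimated ages subtracted, that of Dnmt3a was 0.40 (limma, adjusted p = 0.0996) and did not pass.

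Dnmt3l in Del(CBS1-5) rose at all 3 stages. It measured 14.8 and 14.0 FPKM at 96 h, 18.8 and 25.5 FPKM at 120 h, and 50.2 and 49.2 FPKM at 144 h. The controls measured 0.270, 0.273, 4.77 and 0.637 FPKM at 96 h, 0.866, 0.709, 7.10 and 1.25 FPKM at 120 h, and 0.105 and 0.123 FPKM at 144 h. The Del(CBS1-5) libraries were above all libraries of other groups, and among the controls the third stood far above the rest at both stages. Of all genes tested, 17.7%, 16.2% and 37.7% lay above every control in both Del(CBS1-5) libraries at the 3 stages.

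The log2 differences were 4.11 ± 0.67 at 96 h (SE, limma adjusted p = 6.12e-05), 3.73 ± 0.67 at 120 h (adjusted p = 0.000319) and 7.86 ± 0.77 at 144 h (adjusted p = 9.20e-10), and they passed without any 1 library. In fragments, inferred from FPKM and depth, the level was 8.97-fold that of all controls at 96 h (95% exact counting interval 7.78 to 10.4) and 37.3-fold (27.3 to 52.3) without the third control. At 120 h it was 8.55-fold (7.64 to 9.59) and 23.7-fold (19.3 to 29.3) in the same way, and at 144 h 436-fold (221 to 1010), where the controls held 8 fragments in all. With the timecourse libraries of 144 h among the controls, which measured 3.13 and 2.404 FPKM, the Dnmt3l level at 144 h was 41.0-fold (34.7 to 48.8), and its log2 difference was 5.997 (limma, adjusted p = 1.27e-06). The intervals cover counting error only, and they rest on taking the lowest value above 0 in any library as 1 fragment. Against the third control alone the log2 differences were 1.58 (limma adjusted p = 0.0945) at 96 h and 1.61 (adjusted p = 0.109) at 120 h. Its change was larger at 144 h than at 96 h by 3.75 and than at 120 h by 4.13 (7.07% of all genes) on the log2 scale (limma, adjusted p = 0.0138 and 0.00913), neither of which passed against controls of the same set (1.95 and 2.37, limma adjusted p = 0.332 and 0.265) or with the timecourse level subtracted (3.21 and 3.33, adjusted p = 0.0668 and 0.0929). The first was also lost without the first 144 h (3.74) or the second 96 h mutant library (3.71) or the first 144 h control (3.69), and the second without the first 120 h mutant library (3.91).

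**Figure D4:**
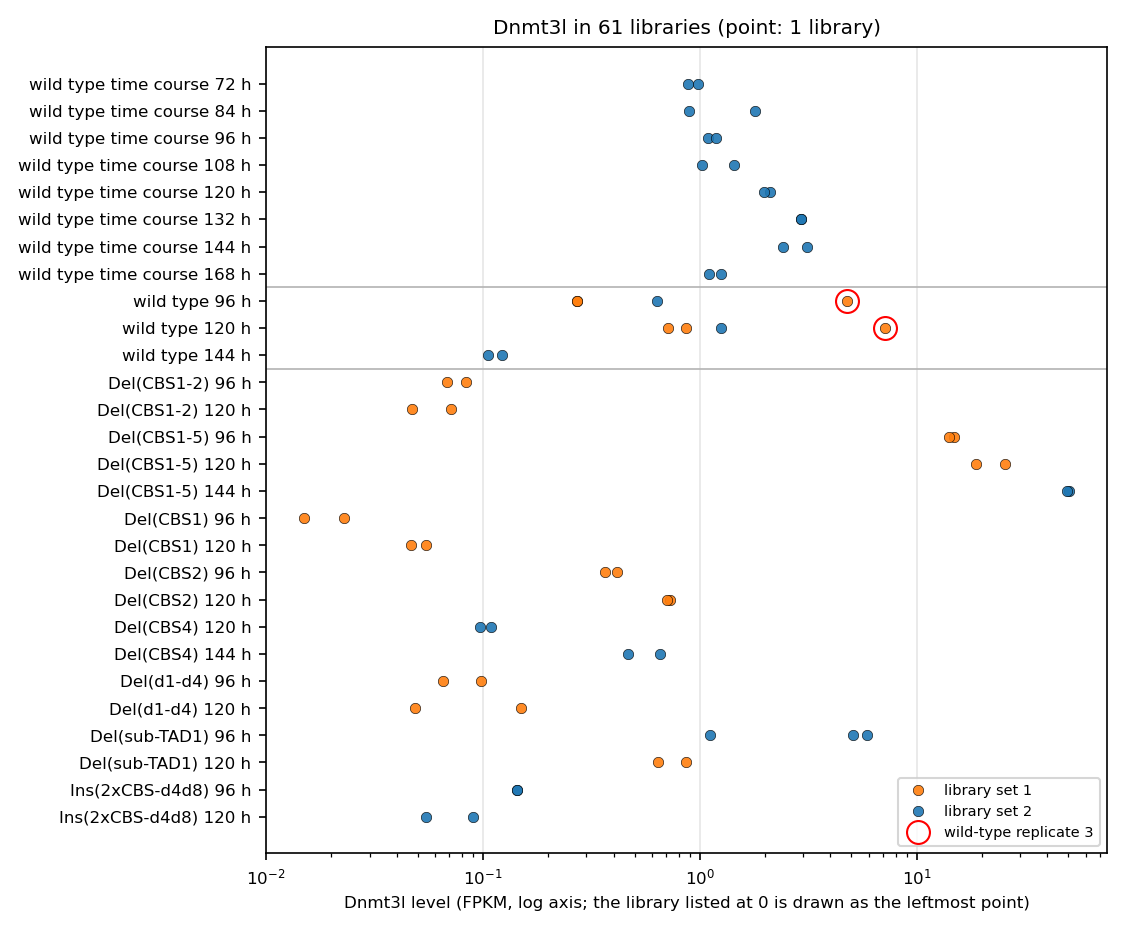
Dnmt3l FPKM (horizontal log axis, with the library listed at 0 drawn as the leftmost point) in each of the 61 libraries, by group, coloured by mt-Co3 set (set 1 high, set 2 low) and with the third control ringed. The 6 Del(CBS1-5) libraries lie at 14.0 to 50.2 FPKM, the third wild-type control at 4.77 and 7.10 FPKM, and both Del(CBS1) groups at 0 to 0.0545 FPKM.

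Dnmt3l was below the controls in Del(CBS1), Del(CBS1-2), Del(d1-d4), Del(CBS4) and Ins(2xCBS-d4d8). By limma, 1 of the 8 genes passed in Del(CBS1) at 96 h (1.23% of all genes) and at 120 h (2.10%), 1 in Del(CBS1-2) at 96 h (4.49%) and at 120 h (2.35%), and 1 in Del(d1-d4) at 120 h (1.85%), each time Dnmt3l. In Del(d1-d4) at 96 h (1.19%) 0 of the 8 passed, with 4 at an unadjusted p under 0.05, and in Del(CBS2) 0 passed at 96 h (0.298%) or 120 h (0.193%), with 0 at an unadjusted p under 0.05. At 120 h Dnmt3l measured 0.0466 and 0.0545 FPKM in Del(CBS1), 0.0471 and 0.0711 FPKM in Del(CBS1-2), 0.150 and 0.0485 FPKM in Del(d1-d4), 0.0964 and 0.108 FPKM in Del(CBS4) and 0.0900 and 0.0545 FPKM in Ins(2xCBS-d4d8). All 10 libraries were below the lowest control (0.709 FPKM). Of all genes tested, 12.0% were likewise below all controls in both Del(CBS1) libraries, 18.2% in Del(CBS1-2), 13.0% in Del(d1-d4), 17.3% in Del(CBS4) and 11.8% in Ins(2xCBS-d4d8). Del(CBS2), at 0.725 and 0.707 FPKM, overlapped the controls.

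The log2 differences at 120 h were -3.46 in Del(CBS1) (limma, adjusted p = 0.00295), -3.39 in Del(CBS1-2) (adjusted p = 0.00502), -3.10 in Del(d1-d4) (adjusted p = 0.00779), -3.04 in Del(CBS4) (adjusted p = 0.000811) and -3.28 in Ins(2xCBS-d4d8) (adjusted p = 0.000814), each with an SE of 0.67. Without the third control they became -2.76, -2.68, -2.40, -2.33 and -2.57. The fragments behind them were few, scaled so that the lowest value above 0 in any library counts as 1. There were 4 in both Del(CBS1) libraries (1.56 and 2.00 before rounding), 5 in Del(CBS1-2), 8 in Del(d1-d4), 9 in Del(CBS4) and 5 in Ins(2xCBS-d4d8), against 98 in the 3 other controls. Per depth those 3 controls held 16.3-fold the level of Del(CBS1) (95% exact counting interval 6.18 to 61.2), 15.8-fold that of Del(CBS1-2) (6.53 to 49.6), 9.45-fold that of Del(d1-d4) (4.61 to 22.5), 9.07-fold that of Del(CBS4) (4.59 to 20.4) and 13.1-fold that of Ins(2xCBS-d4d8) (5.42 to 41.2). The calls in Del(CBS4) and Ins(2xCBS-d4d8) held without any 1 library. Those in Del(CBS1), Del(CBS1-2) and Del(d1-d4) were lost without either mutant library (-3.42 and -3.50, -3.28 and -3.50, -3.48 and -2.73). They were also lost with a pseudocount of 1 FPKM (-1.39, -1.38 and -1.33, limma adjusted p = 0.105, 0.0846 and 0.128). Against controls of the same set, those in Del(CBS1-2) (-3.49, adjusted p = 0.0626, limma) and Del(d1-d4) (-3.21, adjusted p = 0.0999) did not pass. At a given p, the adjusted p is smaller where more genes pass. Of all genes, 37.5% passed in Del(CBS4) and 26.9% in Ins(2xCBS-d4d8), against 1.85% to 2.35% in the other 3 mutants. Whether a call held therefore does not rank the mutants by size of change, here or at 96 h.

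At 96 h the calls were weaker. Dnmt3l measured 0 and 0.0230 FPKM in Del(CBS1) (log2 difference -2.92, limma adjusted p = 0.0209), 0.0831 and 0.0686 FPKM in Del(CBS1-2) (-2.26, adjusted p = 0.0439), 0.144 and 0.143 FPKM in Ins(2xCBS-d4d8) (-1.78, adjusted p = 0.0424) and 0.0976 and 0.0656 FPKM in Del(d1-d4) (-2.21, adjusted p = 0.0851). All 8 libraries were below the lowest control (0.270 FPKM), as were the libraries of 10.6%, 14.6%, 9.21% and 14.2% of all genes in the same order of mutants. However, the first 3 calls were lost without the third control (-2.07, -1.41 and -0.94) or without either mutant library (-2.77 and -3.07, -2.31 and -2.20, -1.78 and -1.78), and that in Del(CBS1-2) also without the fourth control (-2.32). None of the 3 passed against controls of the same set. With a pseudocount of 1 FPKM those in Del(CBS1) (-0.97, limma adjusted p = 0.305) and Del(CBS1-2) (-0.88, adjusted p = 0.255) were lost too. With all such libraries pooled, 9 of the 61 libraries held 3 fragments or fewer. In Del(CBS4) at 144 h, Dnmt3l measured 0.657 and 0.466 FPKM, above the 144 h controls (1.61, limma adjusted p = 0.354) and below the timecourse at that stage (3.13 and 2.404 FPKM), with a log2 difference of -0.25 (limma, adjusted p = 0.965) against the same set. Its change from the controls was higher there than at 120 h by 4.65 (limma, adjusted p = 0.00305, 8.27% of all genes), and that of Dnmt3a by 0.60 (adjusted p = 0.00517). The Dnmt3l difference did not pass against controls of the same set (2.92, limma adjusted p = 0.246) or with a pseudocount of 1 FPKM (1.81, adjusted p = 0.0729). The Dnmt3a difference did not pass without the second 120 h mutant library (0.45, limma adjusted p = 0.102) or with the timecourse level at the estimated ages subtracted (0.15, adjusted p = 0.576).

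The other calls in Del(CBS4) and Ins(2xCBS-d4d8) were changes of less than 0.5 on the log2 scale. In Del(CBS4) at 120 h, 4 of the 8 genes passed where 37.5% of all genes did (limma). Dnmt3a was lower, at 44.4 and 36.4 FPKM against 52.2 to 60.1 FPKM (-0.45, limma adjusted p = 0.000350), and Tet3 was higher, at 16.003 and 15.8 FPKM against 9.95 to 13.7 FPKM (0.49, adjusted p = 0.00443), both without overlap. Uhrf1 was 146 and 151 FPKM against 124 to 139 FPKM (0.17, limma adjusted p = 0.0202). Dnmt3a did not pass without the second Del(CBS4) library (-0.31), and Uhrf1 not without the third control (0.14) or either Del(CBS4) library (0.19 and 0.15). Against controls of the same set Dnmt3a passed (-0.60), and Tet3 (0.23, limma adjusted p = 0.334) and Uhrf1 (0.10, adjusted p = 0.323) did not. The 2 libraries were nearest to different timecourse ages, 114 h and 128 h.

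At 144 h 1 of the 8 genes passed in Del(CBS4) (2.05% of all genes), Dnmt3b with 21.2 and 19.8 FPKM against 15.3 and 16.02 FPKM (0.38, limma adjusted p = 0.00294). It lay below the timecourse at 144 h (23.4 and 23.1 FPKM), and the call was lost without the first control (0.35) or the first mutant library (0.33) and against the same set (0.10, limma adjusted p = 0.705). Against that set Tet1 (0.63, limma adjusted p = 0.00980) and Tet3 (0.56, adjusted p = 0.0205) were higher, whereas against the controls alone neither passed (0.44 and 0.25). The mutant libraries were nearest to timecourse ages of 136 h and 126 h, the controls to 155 h and the 144 h timecourse to 144 h. From 132 h to 144 h the timecourse itself changed by -0.62 for Tet1 and -0.60 for Tet3. In Ins(2xCBS-d4d8), 2 of the 8 passed at 96 h (27.9% of all genes) and 3 at 120 h (26.9%). Dnmt3a at 120 h was 43.6 and 45.5 FPKM (-0.30, limma adjusted p = 0.0118), below all controls, and against the same set it was lower at 120 h (-0.45) and at 96 h (-0.56, adjusted p = 7.09e-06). It was lost at 120 h without either mutant library (-0.27 and -0.34). Dnmt3b was 57.9 and 53.0 FPKM at 96 h (0.23, limma adjusted p = 0.00913) and 31.1 and 29.8 FPKM at 120 h (0.24, adjusted p = 0.00637), above all controls. Both were lost without the first mutant library (0.17 and 0.21) and were near 0 against the same set (0.00 and 0.07), where Uhrf1 at 120 h was lower (-0.22, limma adjusted p = 0.0324).

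Del(sub-TAD1) libraries at 96 h differed among themselves. Of the 8 genes, 5 passed at 96 h, where 40.0% of all genes did, and 0 at 120 h (6.15%), with 1 at an unadjusted p under 0.05 (limma). Dnmt3l measured 1.12, 5.10 and 5.91 FPKM at 96 h and 0.639 and 0.863 FPKM at 120 h. Tet1 measured 4.07, 7.09 and 7.26 FPKM and Tet2 1.158, 3.02 and 2.85 FPKM at 96 h, so that for all 3 genes the first library was inside the control range and the other 2 were above it.

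The log2 differences at 96 h were 2.00 ± 0.59 for Dnmt3l (SE, n = 3 and 4, limma adjusted p = 0.00669), 0.51 for Tet1 (adjusted p = 0.00127), 0.63 for Tet2 (adjusted p = 0.00357), 0.38 for Tet3 (adjusted p = 0.0111) and -0.13 for Uhrf1 (adjusted p = 0.0399). Without the first mutant library they were 2.74, 0.78, 1.06 and 0.40 for the first 4. Dnmt3l was lost without the third mutant library (1.59), Tet2 without the second (0.40) or the third (0.44), Tet3 without the third control (0.29) or the second mutant library (0.29), and Uhrf1 without the third or the fourth control or the second or the third mutant library (-0.09 to -0.12). With the replicate number as a block Uhrf1 did not pass either (-0.10, adjusted p = 0.0632). Against controls of the same set Dnmt3l (1.69, limma adjusted p = 0.167), Tet1 (0.29, adjusted p = 0.138), Tet2 (0.62, adjusted p = 0.0622) and Tet3 (0.00) did not pass, whereas Uhrf1 (-0.29, adjusted p = 0.000268) and Dnmt3a (-0.28, adjusted p = 0.00232) did. Against the third control alone, Dnmt3l was at -0.53. The changes at 120 h were below those at 96 h for Dnmt3l (-2.98), Tet1 (-0.80) and Tet2 (-0.89) (limma, adjusted p = 0.0132, 0.00409 and 0.0110, 23.6% of all genes). With same-set controls the 3 differences did not pass (-2.77, -0.51 and -0.88, limma adjusted p = 0.225, 0.158 and 0.154). Without the first 120 h mutant library Dnmt3l (-2.79) and Tet2 (-0.85) were lost, and Tet2 also without the second (-0.66) or the third (-0.70) 96 h mutant library. For the other 6 pairs of stages 0 of 48 tests of such a difference passed (limma, 2 at an unadjusted p under 0.05). There 0.257% of all genes passed in Del(CBS1-5) from 96 h to 120 h, 0.175% in Del(CBS1-2), 0.0526% in Del(CBS1), 0.0117% in Del(CBS2), 0.0234% in Del(d1-d4) and 0.392% in Ins(2xCBS-d4d8).

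The libraries with high Dnmt3l also held RNA of pluripotency and germ cell genes. In these bulk libraries more cells of a type and more RNA per cell cannot be told apart. In 10 libraries Dnmt3l was at 4 FPKM or more, namely the 6 of Del(CBS1-5), both of the third wild-type control and the second and the third of Del(sub-TAD1) at 96 h. This cut was drawn on the Dnmt3l values themselves. The 10 share lines or a control number and are not independent, so the ranges that follow are a description and no test. The summed level of 8 naive pluripotency genes was 35.8 to 83.4 FPKM in these 10 and 2.18 to 96.5 FPKM (median 7.63) in the other 51, and that of 7 germ cell genes 14.1 to 60.98 FPKM and 1.03 to 13.3 FPKM (median 3.07). The upper end of the 51 came from the timecourse at 72 h, where the naive sum was 76.7 and 96.5 FPKM with Dnmt3l at 0.879 and 0.977 FPKM. What part such cells have in the values of Dnmt3l and of the other 7 genes was not tested.

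**Figure D5:**
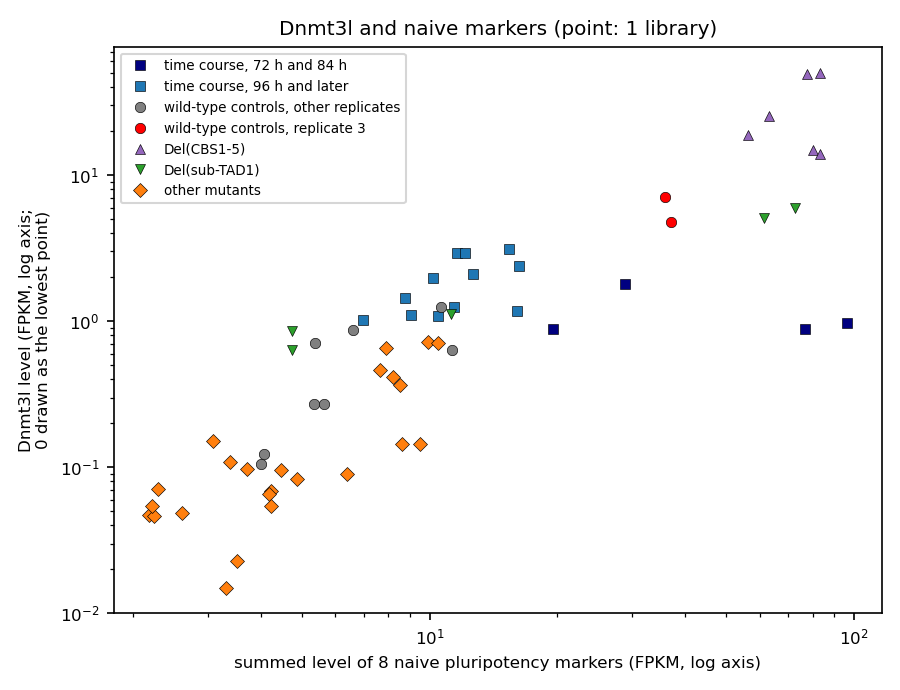
Dnmt3l FPKM (vertical log axis, with the library listed at 0 drawn as the lowest point) against the summed FPKM of 8 naive pluripotency genes (log axis) for the 61 libraries, coloured by kind of library. The 10 libraries with Dnmt3l at 4 FPKM or more have a sum of 35.8 to 83.4 FPKM, and the 72 h timecourse libraries have a high sum (76.7 and 96.5) with Dnmt3l under 1 FPKM.

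Named markers moved in the same way. Zfp42 (Rex1), a naive marker, measured 0.765, 0.713, 11.7 and 2.25 FPKM in the 96 h controls, 10.3 to 16.6 FPKM in Del(CBS1-5), and 1.62, 8.94 and 11.7 FPKM in Del(sub-TAD1) at 96 h. Pou5f1 measured 27.2, 28.7, 80.9 and 32.2 FPKM in the 96 h controls and 162 and 167 FPKM in Del(CBS1-5) at 96 h. Dppa3 (Stella), a germ cell and oocyte protein known to keep UHRF1 from chromatin, measured 8.35 and 7.46 FPKM in the third control, 17.5 to 36.4 FPKM in Del(CBS1-5) and 0 to 2.83 FPKM in the other controls.

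Germline genes that are known to be silenced by promoter methylation were summarised in the same way. Of 15 listed, 2 of them (Dazl and Ddx4) also in the germ cell list, 10 passed the filter on low values. Genes silent in the wild type could pass it only through the groups where they were high, so their calls were not counted, and the levels of all 15 were summed instead. In Del(CBS1-5) the sum was 22.2 to 24.1 FPKM at 96 h, 18.2 to 21.8 FPKM at 120 h and 38.0 to 43.8 FPKM at 144 h. In Del(sub-TAD1) it was 13.6 to 18.0 FPKM at 96 h and 5.36 to 6.58 FPKM at 120 h. The controls held 2.08 to 12.8 FPKM at 96 h, 2.17 to 11.95 FPKM at 120 h and 1.64 to 2.39 FPKM at 144 h. The sum was 11.95 to 43.8 FPKM in the 10 libraries with Dnmt3l at 4 FPKM or more and 1.06 to 14.8 FPKM (median 2.67) in the others.

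Other genes of the pathway were counted in each direction between 168 h and 72 h (limma, 25.3% of all genes higher and 22.9% lower, median log2 difference 0.00). Of 15 tested partners of the methyltransferases, 3 rose and 7 fell, with a median of -0.35. Uhrf2, a relative of Uhrf1, fell from 51.5 to 24.3 FPKM (-1.08), Hells, a remodeller needed for methylation, from 46.4 to 25.5 FPKM (-0.86), and Trdmt1, an RNA methyltransferase of the family, by 0.78 on the log2 scale, while Ehmt2, a histone H3 methyltransferase, rose from 38.3 to 59.6 FPKM (0.65). Of 20 TET partners and base excision repair genes, 4 rose and 6 fell (median -0.18), and the 4 with the largest changes all rose.

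Among these, Cxxc4, which binds TET2, went from 0.342 to 6.59 FPKM (3.92), Gadd45g from 2.89 to 18.5 FPKM (2.63), Gadd45b by 1.61 and the glycosylase Smug1 from 4.52 to 10.2 FPKM (1.163). Of 6 readers of methylated CpG, 3 rose and 1 fell (median 0.20), led by Mbd2 (10.8 to 20.8 FPKM, 0.94), with Zbtb33 (0.58) and Mbd1 (0.23) higher and Zbtb38 (-0.49) lower. Of 14 genes of methyl donor and 2-oxoglutarate metabolism, which supply the methyltransferases and the TET enzymes, 2 rose and 7 fell (median -0.53). The isocitrate dehydrogenases Idh1 (59.2 to 132 FPKM) and Idh2 (66.1 to 147 FPKM) rose, while Idh3a (72.5 to 29.5 FPKM, -1.30), a subunit of the mitochondrial enzyme of the citric acid cycle, and Mthfd1 (107 to 49.1 FPKM, -1.12), of the folate cycle, fell.

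Among the germline genes over the timecourse, Ddx4 fell from 3.71 to 0.109 FPKM (-4.19) and Sycp3 from 4.62 FPKM to being listed at 0. Stk31, under the filter level of 1 FPKM at both ends, fell from 0.539 to 0.0533 FPKM (-2.09). These genes were named because they passed, so their values are a description only. Of 16 DNA replication genes, which like Dnmt1 and Uhrf1 are known to be high in dividing cells, 8 rose and 2 fell (median 0.24), among them Rrm2 (0.95), E2f1 (0.84) and Ccne2 (0.47) upward and Ccne1 downward (-0.43). Leaving aside the germline genes, whose calls were not counted, the named genes all passed with limma adjusted p from 5.60e-15 for Uhrf2 to 0.0383 for Mbd1. In Del(CBS1-5) at 144 h, where 15.5% of all genes were higher and 8.18% lower (limma, median log2 difference 0.03), the lists were counted in the same way. Of the donor and 2-oxoglutarate genes 7 were higher and 0 lower of 14 (median 0.36), of the methyltransferase partners 3 and 1 of 15 (0.10), of the TET partners and repair genes 5 and 2 of 20 (0.07), of the methyl-CpG readers 0 and 1 of 6 (0.01) and of the replication genes 3 and 0 of 16 (0.00).

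The genes most like each of the 8 were found by Pearson's r of log2(FPKM + 0.1) over the 16 timecourse libraries, given with r over the 45 other libraries as a description. Dnmt3b was most like Iqgap1 (0.987, 0.692 elsewhere), Cpox (0.985, 0.685) and Utp14a (0.983, 0.540), and Dnmt1 like Chaf1a (0.963, 0.671), Xylt2 (0.941, 0.00635) and Smarca4 (0.931, 0.802). Tet1 went with Aftph (0.961, 0.395), Vps13c (0.959, 0.539) and Exoc4 (0.954, 0.433), and Tet3 with Plxnb2 (0.956, 0.719), Naglu (0.953, 0.658) and Tmem151b (0.946, 0.330). For Dnmt3l the nearest were Dusp27 (0.934, 0.898), Lhfpl1 (0.919, 0.498) and Tdrd7 (0.860, 0.101). Uhrf1 was nearest to Wfdc3 (0.920, -0.0292), Zfp113 (0.919, 0.258) and Socs7 (0.914, 0.253), Dnmt3a to Cdc37l1 (0.910, -0.131), Dhx57 (0.899, 0.440) and C87436 (0.893, 0.274), and Tet2 to Cep83os (0.922, 0.192), Npr2 (0.919, 0.697) and Plin2 (0.895, 0.625). Stages are shared by the points, and in the other libraries r lay between -0.131 and 0.898 over these pairs, with at most 0.258 for Uhrf1, 0.440 for Dnmt3a and 0.539 for Tet1.

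By the mm10 annotation, Dnmt1 (ENSMUSG00000004099) lies at chr9:20907209-20959888, Uhrf1 (ENSMUSG00000001228) at chr17:56303321-56323486, Dnmt3a (ENSMUSG00000020661) at chr12:3806527-3914443 and Dnmt3b (ENSMUSG00000027478) at chr2:153649450-153687730. Dnmt3l (ENSMUSG00000000730) lies at chr10:78042287-78063622, Tet1 (ENSMUSG00000047146) at chr10:62804570-62908996, Tet2 (ENSMUSG00000040943) at chr3:133463679-133545139 and Tet3 (ENSMUSG00000034832) at chr6:83362373-83459084. Dnmt3l overlaps Aire on the opposite strand by 1324 bp. Aire was at 0 to 1.82 FPKM (median 0.0282), highest in Del(CBS1-5) at 144 h, and since the FPKM were estimated with default settings, which do not use the strand of a read, reads in the overlap cannot be told apart. Dnmt3aos, antisense to Dnmt3a, was listed at 0 throughout, and Dnmt3bos reached at most 0.927 FPKM.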

How the data were processed

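Poly(A) RNA of 61 stembryo libraries was sequenced from stranded libraries. The authors trimmed reads with cutadapt (1.16), mapped them to mm10 with STAR (2.7.7a) and deposited FPKM per gene from Cufflinks (2.2.1) at default settings, which do not use the strand of a read. The 8 genes and all gene lists were chosen with earlier results of these data known. FPKM values were tested as log2(FPKM + 0.1), a scale that understates changes of low genes. Genes with a mean of at least 1 FPKM in at least 1 group (17098 of 55052) entered 1 limma fit (3.58.1, R 4.3.3) with a coefficient for each of the 28 groups, so that groups of 2 share the estimated spread. Tests were two-sided with Benjamini-Hochberg adjustment over all genes of a comparison (threshold 0.05), and the script was tested on simulated data. Ratios used exact permutation tests (scipy 1.17.1). Depth, 14.0 M to 36.4 M fragments, was inferred from the confidence bounds of low values in genes with 1 transcript. For Dnmt3l fragments (floor 3), the smallest product of FPKM and depth above 0, in a Del(CBS1) library at 96 h, was taken as 1 fragment. Of 19 libraries then under 10 fragments, 16 lay within 0.1 of a whole number. A timecourse age was assigned by likeness over 1000 genes. Control numbers went together across 96 h and 120 h (r = 0.561 to 0.889 in 4 of 4), as deviations from group means. The text names the 8 genes, the up to 4 list genes of largest passing change between 72 h and 168 h, and the 3 genes most like each, leaving out predicted genes. The pluripotency markers named beside Dnmt3l were chosen after their values were seen. Alternatives were another pseudocount, no filter, median-ratio scaling, a variance trend, only the compared groups, the replicate block, same-set controls, age-matched values and single libraries left out. Those on the third wild-type control and the first Del(sub-TAD1) library were chosen after seeing the data.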

Additional observations from a re-analysis of the deposited data

Results flagged for a closer look

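In 16 groups of 4 libraries (the 8 genes in the 96 h and 120 h controls), 4 held a library far from the other 3, where chance alone gives about 1 in 20 independent groups. These were not independent, since the control numbers went together across the stages and each gene was apart in the same numbered control at both. Dnmt3l was at 4.77 FPKM in the third 96 h control and at 7.10 FPKM in the third 120 h control, while the others were at 0.270 to 0.637 FPKM and 0.709 to 1.25 FPKM. Dnmt1 was at 96.7 FPKM in the fourth 96 h control and at 106 FPKM in the fourth 120 h control, while the others were at 77.2 to 79.2 FPKM and 83.4 to 83.6 FPKM. The fourth control was the only one of the 4 from the low mt-Co3 set. In that set Dnmt1 was at 82.4 to 106 FPKM outside the timecourse, a range that includes this control and whose top is its 120 h library.

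A mutant effect differed between stages in 13 of 80 tests (limma, adjusted p under the threshold). In Del(CBS1-5), the change from the controls at 144 h, less the one at 96 h, was 0.67 for Dnmt3a, 2.14 for Dnmt3b, 3.75 for Dnmt3l and 0.67 for Tet1 (10.3% of all genes passed). Less the one at 120 h it was 0.76, 2.05, 4.13 and 0.94 for the same genes (7.07%). In Del(CBS4), the change at 144 h less the one at 120 h was 0.60 for Dnmt3a and 4.65 for Dnmt3l (8.27%). In Del(sub-TAD1), the change at 120 h less the one at 96 h was -2.98 for Dnmt3l, -0.80 for Tet1 and -0.89 for Tet2 (23.6%). The stages compared in Del(CBS1-5) and Del(sub-TAD1) came from different mt-Co3 sets. In Del(CBS4) both stages were in the low set, but most of the 120 h controls were in the high set. Against controls of the same set its Dnmt3l difference did not pass (2.92, limma adjusted p = 0.246). With such controls 7 of the 80 passed.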

How the results depend on the processing

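The counts of passing tests were 14 for the timecourse steps, 3 for the controls, 29 for the mutants and 13 for the differences between stages. With only the compared groups in each fit they became 1, 1 and 5 for the first 3, where few samples remain to estimate the spread. With controls of the same mt-Co3 set the differences between stages became 7. Leaving out single libraries gave 10 to 15 steps, 3 to 4 control changes, 26 to 32 mutant changes, 11 to 14 stage differences and 7 to 7 genes in the F test. Among the single limma calls, 311 of 402 results with a library left out kept their call and 91 lost it. For the ratios, leaving out a library cannot inform. The smallest exact permutation p of 3 against 4 is 0.0571, above the threshold.

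With replicate numbers as a block there were 21 steps, 4 control changes, 40 mutant changes and 17 stage differences, and 3 of 63 calls were lost. The control numbers pair, the timecourse numbers do not (1 of 28 pairs of stages with r over 0.1), and for mutants only 2 numbers are shared. Direction reversed for Dnmt3b in Del(CBS4) at 144 h (-0.10, timecourse level at the estimated age subtracted) and for Dnmt3l in Del(sub-TAD1) at 96 h (-0.53, the third control as the only one). The cause was not tested. Pseudocount, filter, scaling and trend lost 8, 6, 6 and 1 of 63 calls, same-set controls 22 of 45, and age-matched values 13 of 42.

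Low fragment numbers limit Dnmt3l, and pairs of libraries limit every mutant.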

Other observations

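The wild-type libraries at 144 h differed between the timecourse and the controls. Dnmt3l was at 3.13 and 2.404 FPKM in the timecourse and at 0.105 and 0.123 FPKM in the controls, and Dnmt3b at 23.4 and 23.1 FPKM and at 15.3 and 16.02 FPKM. The TET genes were lower in the timecourse. Tet3 had means of 9.30 FPKM there and 14.2 FPKM in the controls, Tet1 of 3.02 and 3.94 FPKM and Tet2 of 1.14 and 2.41 FPKM. The naive pluripotency sum was 15.4 to 16.3 FPKM and 4.02 to 4.08 FPKM.

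Sycp3, a protein of the meiotic chromosome axis, was listed at 0 in 44 libraries and was at 1.26 to 5.92 FPKM in 17. The 17 were the timecourse at 72 h and 84 h, both of the third wild-type control, and all Del(CBS1-5) and Del(sub-TAD1) libraries.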
